A study of Mus musculus with 8 samples.

Results

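The iron-sulfur cluster assembly machinery is described here as 28 named genes, 17 that act in mitochondria and 11 that act in the cytosol, in livers whose hepatocytes are targeted for both mitoferrins and in wild-type livers. The members were taken by gene symbol from the deposited table of 15864 genes, and all 28 were found and all 28 passed the filter on low counts that left 14664 genes for testing. KO livers came from mice labelled Alb-cre Mfrn1-/- Mfrn2 -/- (5 samples), in which a transgene under the albumin promoter expresses Cre recombinase in hepatocytes and both mitoferrin genes, Slc25a37 and Slc25a28, are targeted. WT livers came from mice labelled WT (3 samples), described as matched in age. All were fed standard chow, and the labels give neither age in numbers, strain nor sex. Cre is not named for the WT mice, so carriage of the transgene and loss of the carriers cannot be told apart. The genotype label does not say whether the other cell types of the liver keep either gene.

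Mitoferrins bring iron into the mitochondrial matrix, where it is built with sulfur into iron-sulfur clusters, the redox and catalytic cofactors of respiratory complexes, aconitase, lipoate synthase and many enzymes of DNA and RNA metabolism. In the matrix, a cysteine desulfurase complex delivers sulfur to a scaffold protein, a ferredoxin supplies electrons, a chaperone pair releases the finished cluster to a glutaredoxin, and a set of late factors converts and hands on clusters to single enzymes. A sulfur-containing product leaves mitochondria for a separate cytosolic machinery, which assembles clusters on its own scaffold and targets them to cytosolic and nuclear proteins. Hepatocytes, rich in mitochondria and in cluster enzymes, depend on both.

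Total RNA depleted of ribosomal RNA was sequenced, and the libraries held 24600340 to 31887401 counts in KO and 35484499 to 43072524 counts in WT. Slc25a28 (mitoferrin 2) was at 0.592 to 0.888 CPM (counts scaled by library size) in the KO livers and at 16.6 to 18.1 CPM in the WT livers, with an edgeR adjusted p of 1.92e-07. Slc25a37 (mitoferrin 1) was at 5.76 to 10.6 CPM in KO and at 12.9 to 23.0 CPM in WT, lower in every KO liver, with an adjusted p of 0.104 by edgeR, not past the threshold, and of 0.000347 by DESeq2. Whether the reads counted for Slc25a37 lie in its deleted part is not given, so its remaining level does not check the deletion. The tissue label was met by hepatocyte markers, whose summed level was 90800 to 103000 CPM in KO and 93400 to 97700 CPM in WT. Summed markers of 6 other liver cell types (Kupffer, endothelial, stellate, bile duct, erythroid and lymphoid cells) had overlapping ranges in the groups. KO replicates 1 and 2 stood apart in clock genes: Dbp, a clock output factor, was at 69.3 and 54.5 CPM there, at 1.76 to 2.41 CPM in the other KO livers and at 1.23 to 2.93 CPM in WT. The labels do not say outright that each sample is a separate animal, so the p-values speak only to sample-to-sample spread. In bulk liver, fewer cells of a type and less RNA per cell cannot be told apart.

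The machinery was present in every library, and its members differed widely in level. Levels between genes are compared in FPKM, the deposited values scaled to gene model length and library size. Hspa9, the mitochondrial Hsp70 chaperone, was at the top, with 131 ± 14.4 FPKM in KO and 133 ± 10.6 FPKM in WT (SD, n = 5 and 3). Fdx1, a ferredoxin that also serves steroid hydroxylases, followed with 80.9 ± 3.64 FPKM in KO and 83.7 ± 10 FPKM in WT. The glutaredoxin Glrx5 had 49.8 ± 7.06 FPKM in KO and 48.5 ± 1.96 FPKM in WT. Fam96a, a cytosolic targeting factor, was the highest cytosolic member at 32.4 ± 4.32 FPKM in KO and 33.3 ± 3.58 FPKM in WT. Lowest in the WT order were Ndor1 at 2.38 ± 0.273 FPKM in KO and 2.08 ± 0.115 FPKM in WT, Nubpl at 2.20 ± 0.175 FPKM in KO and 2.34 ± 0.314 FPKM in WT, and Iba57 at 2.84 ± 0.754 FPKM in KO and 2.35 ± 0.173 FPKM in WT. In KO the lowest were Nubpl, Mms19 at 2.28 ± 0.314 FPKM (2.45 ± 0.0164 FPKM in WT) and Ndor1.

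**Figure D1:**
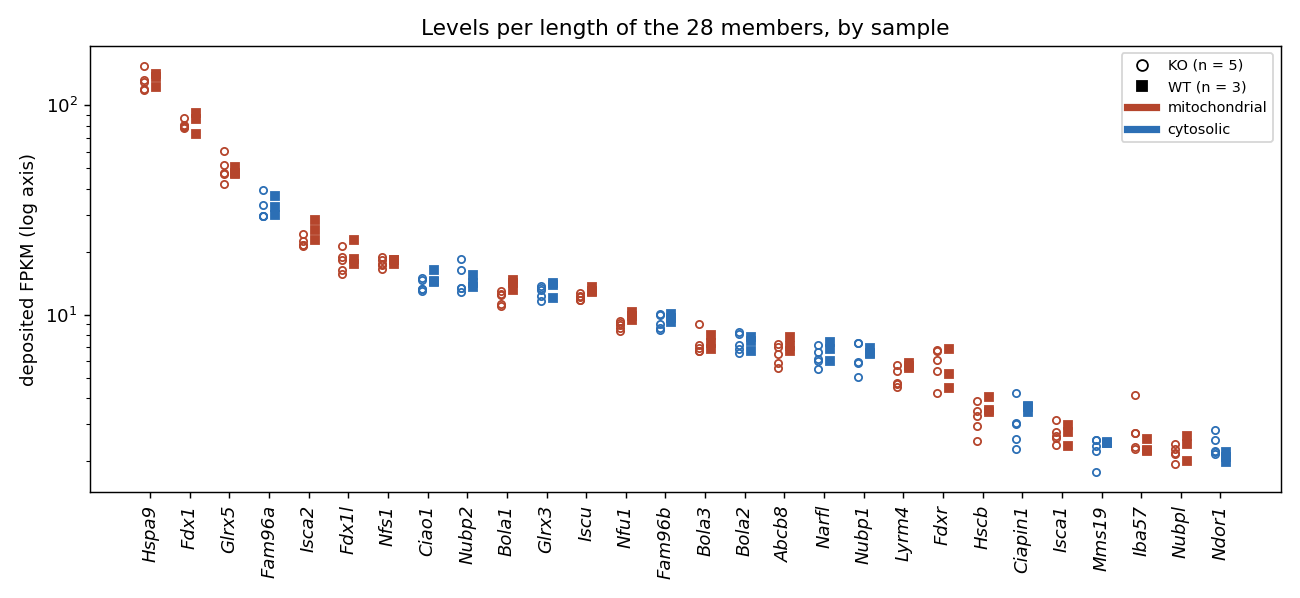
Deposited FPKM (log axis) of each of the 28 members in the 5 KO livers (open circles) and 3 WT livers (filled squares), ordered by the WT mean, with mitochondrial members in red and cytosolic members in blue. Hspa9 lies near 131 FPKM in KO and 133 FPKM in WT, Ndor1 near 2.38 FPKM in KO and 2.08 FPKM in WT, and the KO and WT points of a gene lie close beside each other.

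The order of levels was only partly resolved. Of 27 pairs of neighbours in the order, 7 had separate ranges in the KO samples and 10 in the WT samples. The steps from Hspa9 to Fdx1, Glrx5, Fam96a and Isca2 were separate in both groups. The run from Ciao1 through Nubp2, Bola1 and Glrx3 to Iscu, the scaffold on which clusters are built, was not resolved in either group, with WT means between 13.1 and 15 FPKM. The median member lay at 8.86 FPKM in KO and 9.84 FPKM in WT among mitochondrial genes, and at 7.41 FPKM in KO and 7.34 FPKM in WT among cytosolic genes, where the medians over all genes tested were 3.50 FPKM in KO and 3.46 FPKM in WT. The length behind FPKM matters here: the gene model was 861 bases for Fdx1 and 930 bases for Glrx5, where the longest coding transcript in GENCODE M21 has 2759 and 2925 bases, and 4288 bases for Isca1, where it has 1942. Per kilobase of that transcript, Fdx1 ranked 4 and Glrx5 ranked 10 in WT livers, and Hspa9 still ranked 1. That scale divides the same deposited counts by another length, and whether they cover the whole transcript is not given. Where they do not, it sets a member too low.

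Proteins that work as partners or belong to 1 family were unevenly expressed, in proportions that mostly overlapped between KO and WT livers. Nfs1, the desulfurase, exceeded its small stabilising subunit Lyrm4 (Isd11) 3.57 ± 0.363 times in KO and 3.15 ± 0.0368 times in WT by FPKM (SD of the ratio within each sample, n = 5 and 3). Its ratio to the scaffold Iscu was 1.45, 1.48, 1.48, 1.48 and 1.42 in KO replicates 1 to 5 and 1.41, 1.35 and 1.35 in WT replicates 1 to 3. All 5 KO ratios lay above all 3 WT ratios, a narrow separation singled out after the values were seen and not tested. More pairs were computed than are given here, and no other pair separated. Fdx1 exceeded Fdx1l (Fdx2), the ferredoxin known in human cells to be needed for cluster synthesis, 4.55 ± 0.703 times in KO and 4.30 ± 0.528 times in WT. The A-type proteins Isca1 and Isca2, which act together in late assembly, stood at a ratio of 0.122 ± 0.0156 in KO and 0.107 ± 0.0235 in WT. Hspa9, which serves protein import as well as cluster transfer, exceeded its dedicated J-protein Hscb 42.3 ± 12.1 times in KO and 36.8 ± 5.88 times in WT. These ratios depend on the gene length used. Per kilobase of longest coding transcript, the ratio of Nfs1 to Lyrm4 was 8.65 ± 0.881 in KO and 7.64 ± 0.0893 in WT, and that of Nfs1 to Iscu 1.65 ± 0.0307 in KO and 1.55 ± 0.0367 in WT. The ratio of Fdx1 to Fdx1l was then 1.47 ± 0.228 in KO and 1.39 ± 0.171 in WT. Isca1 to Isca2 stood at 0.273 ± 0.0350 in KO and 0.241 ± 0.0529 in WT, and Hspa9 to Hscb at 48.5 ± 13.9 in KO and 42.2 ± 6.73 in WT. Each of the 5 pairs kept the same member as the higher on both scales, which rest on the same counts and differ only in length.

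No member of the machinery was called different between KO and WT livers. The comparison asks whether transcripts for making clusters differ in livers of mice labelled as knockouts for the carriers that bring iron in. By edgeR's quasi-likelihood test with Benjamini-Hochberg adjustment over all 14664 genes, 0 of 28 members passed at 0.05, where 0.109% of all genes did, and the smallest adjusted p of a member was 0.447. DESeq2 called 0 of 28 against 1.66% of all genes, and limma-voom 0 of 28 against 0.123%. At an unadjusted edgeR p under 0.05, 1 member passed, Bola1, where 10.4% of all genes did, and DESeq2 and limma-voom each also gave 1. The authors' deposited table gives every member an adjusted p of at least 0.513 as converted from its score.

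The intervals of the fold changes describe the size of difference that the model, with group as its only term, leaves for each member. They are taken gene by gene, with no allowance for the number of members. The 95% interval of the edgeR fold change lay within 1.5-fold in both directions for 26 of 28 members, and within 2-fold for all 28. Over all genes tested 60.7% lay within 1.5-fold and 83.8% within 2-fold, and among the 10460 genes with a mean level in the members' range 8244 lay within 1.5-fold. The median interval of a member reached 0.24 on the log2 scale to either side, and the narrowest were those of Iscu, at 0.824 to 1.03 times the WT level, and Nfu1, at 0.801 to 1.01 times. The exceptions to the 1.5-fold bound were Iba57, at 0.886 to 1.65 times the WT level, and Ciapin1, at 0.653 to 1.09 times.

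**Figure D2:**
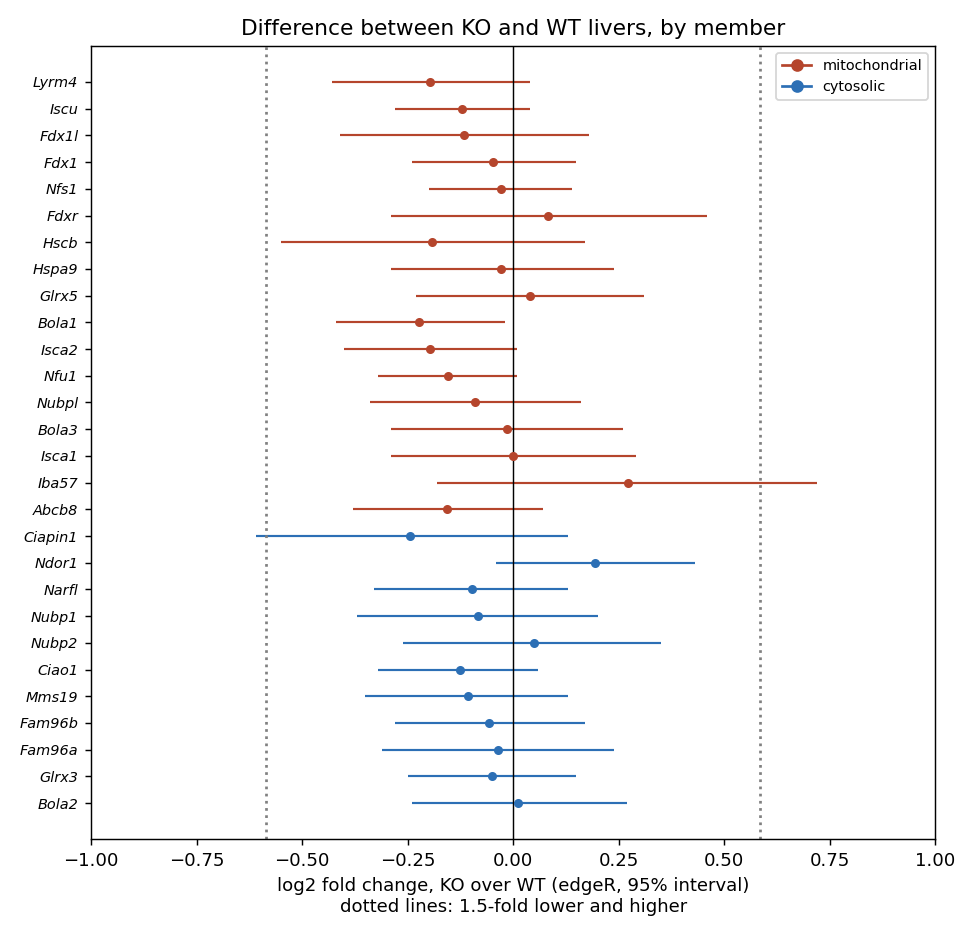
Log2 fold change of each member, KO over WT, with its 95% interval from edgeR (5 KO and 3 WT livers), mitochondrial members above in red and cytosolic members below in blue, with dotted lines at a 1.5-fold change. The intervals of 26 of the 28 members lie between the dotted lines, and those of Iba57 and Ciapin1 cross a line.

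Small differences lay more often below 0 than above. The log2 fold change was below 0 for 14 of 17 mitochondrial members, with a median of -0.091, and for 8 of 11 cytosolic members, with a median of -0.056, but with the length trend of each library removed it was below 0 for 12 of 17 and 5 of 11, with medians of -0.047 and 0.011. Over all genes tested 50.8% lay below 0 and the median was -0.004. With KO replicates 1 and 2 left out, 12 mitochondrial and 6 cytosolic members lay below 0, with medians of -0.061 and -0.017. Sample titles fall into numbers starting with 82 (KO replicates 4 and 5 and all WT) and with 85 (KO replicates 1 to 3). Against the same WT livers the medians were -0.131 and -0.065 for the KO samples numbered 82 and -0.050 and -0.017 for those numbered 85, and no member passed in either.

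In the core that makes the cluster, 5 of 6 members had a fold change below 0 and none passed, and all 6 intervals lay within 1.5-fold. Nfs1 (mm10 chromosome 2, bases 156123639 to 156144186, minus strand) was at 62.8, 61.2, 70.0, 65.3 and 60.3 CPM in KO replicates 1 to 5 and at 64.7, 64.6 and 66.2 CPM in WT replicates 1 to 3. The narrow WT range lay inside the KO range, and the log2 fold change was -0.03 ± 0.0765 (SE, edgeR adjusted p = 0.930). Iscu (chromosome 5, bases 113772748 to 113778288, plus strand) was at 26.0, 24.9, 28.6, 26.6 and 25.6 CPM in KO and at 27.7, 28.7 and 29.5 CPM in WT. KO replicate 3 alone reached into the WT range, and the log2 fold change of Iscu was -0.12 ± 0.0712 (SE, edgeR adjusted p = 0.586). Its exact two-sided permutation p was 0.0714, where full separation of the groups gives the smallest possible, 0.0357. Lyrm4 averaged 7.57 ± 0.733 CPM in KO and 8.67 ± 0.0760 CPM in WT (SD, n = 5 and 3). In 4 of 5 KO livers it lay below every WT liver, with a log2 fold change of -0.20 ± 0.105 (edgeR SE and adjusted p = 0.543). Exons of Nfs1 share 7.1% of their length with Gm28036 on the same strand, which averaged 51.0 CPM in KO and 50.3 CPM in WT. How reads in that stretch were assigned is not given, so the count of Nfs1 is uncertain by an amount that was not measured.

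For electron supply to the core the KO and WT livers overlapped. Fdxr, the reductase that passes electrons from NADPH to the ferredoxins, was at 18.9, 18.4, 12.2, 15 and 17.2 CPM in KO and at 18.7, 14.8 and 12.6 CPM in WT. It varied about as much within each group as across them, with a log2 fold change of 0.08 ± 0.168 (edgeR SE and adjusted p = 0.9). The ferredoxins Fdx1 and Fdx1l averaged 69.7 ± 3.07 and 14.2 ± 1.99 CPM in KO, against 72.1 ± 7.29 and 15.3 ± 1.88 CPM in WT, with log2 fold changes of -0.05 for Fdx1 and -0.12 for Fdx1l. Exons of Fdx1l share 72.7% of their length with Gm38431, annotated on the same strand, so how reads were shared between them is uncertain.

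The factors that transfer the cluster from the scaffold also overlapped between the groups, with 2 of 3 fold changes below 0 and none that passed. Glrx5, which takes the cluster from the chaperones and is needed for heme synthesis in zebrafish and human red cells, was at 43.9, 47.3, 58.3, 43.4 and 39.1 CPM in KO and at 43.4, 44.6 and 47.5 CPM in WT. KO replicate 3 was high and KO replicate 5 low, and the log2 fold change was 0.04 ± 0.121 (SE, edgeR adjusted p = 0.939). Hspa9 averaged 515 ± 64.9 CPM in KO and 525 ± 38.2 CPM in WT (log2 fold change -0.03), again with its highest value, 626 CPM, in KO replicate 3. Hspa9 has 1 named pseudogene, so its count is uncertain where reads match both. Hscb was the member with the fewest reads, down to 59 counts in a library, and averaged 2.90 ± 0.448 CPM in KO and 3.32 ± 0.321 CPM in WT, with a 95% interval of 0.682 to 1.12 times the WT level.

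The late mitochondrial factors held the members closest to a difference, with 6 of 7 fold changes below 0. Bola1, a mitochondrial BolA protein that works with Glrx5 and lies at mm10 chromosome 3, bases 96196588 to 96219709, on the minus strand, was at 12.2, 13.2, 13.8, 13.9 and 12.0 CPM in KO and at 15.6, 14.5 and 15.5 CPM in WT. All 5 KO livers lay below all 3 WT livers, and the log2 fold change was -0.22 ± 0.0897 (SE, edgeR adjusted p = 0.447, unadjusted p = 0.0338). Nfu1, which delivers clusters to lipoate synthase and other enzymes and lies at chromosome 6, bases 87009236 to 87028461, on the plus strand, was at 17.8, 19, 19.5, 18.3 and 17.4 CPM in KO and at 20.9, 20 and 20.5 CPM in WT. Its groups did not overlap either, and KO over WT was -0.15 ± 0.0742 in log2 (SE, adjusted p = 0.507 by edgeR). Bola1 and Nfu1 were the 2 of 28 members without overlap, both lower in KO, where 6.94% of all genes had no overlap, 3.74% lower and 3.20% higher, so their share was close to that of all genes. Full separation fixes the exact permutation p over samples at 0.0357, its smallest possible value, so for these genes it only restates the lack of overlap. Neither gene passed the adjustment over all genes.

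Other late factors overlapped between the groups. Isca2 was at 19.3, 18.2, 21.7, 18.5 and 18.6 CPM in KO and at 24.0, 20.2 and 22.2 CPM in WT, with a log2 fold change of -0.20 ± 0.0908 (edgeR SE and adjusted p = 0.492). Only KO replicate 3 entered the WT range. Its partner Isca1 was at 11.7, 9.93, 11.7, 10.9 and 13.6 CPM in KO and at 9.87, 13.0 and 11.9 CPM in WT, with an interval of 0.819 to 1.22 times the WT level. Iba57, which acts with both, was at 11.1, 13.1, 20.8, 13.2 and 11.4 CPM in KO and at 10.7, 12.7 and 11.1 CPM in WT. Its fold change was the most positive of the members, at 0.27 ± 0.200 on the log2 scale (SE, adjusted p = 0.671 by edgeR), and it was 0.09 without KO replicate 3.

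The remaining late factors and the membrane carrier did not separate the groups. Bola3, which works with Nfu1 in lipoate-dependent pathways, averaged 23.5 ± 3.68 CPM in KO and 23.8 ± 1.75 CPM in WT (SD, n = 5 and 3), or -0.01 as a log2 fold change. Nubpl, an assembly factor for the clusters of complex I, averaged 10.9 ± 0.782 CPM in KO and 11.6 ± 1.48 CPM in WT, a log2 fold change of -0.09. Abcb8, a transporter of the inner membrane, averaged 30.6 ± 3.55 CPM in KO and 34.0 ± 1.91 CPM in WT. In 3 of 5 KO livers it lay below every WT liver, with a log2 fold change of -0.16 and an edgeR adjusted p of 0.625.

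In the cytosol, the electron chain that starts assembly held the members with the lowest and the highest cytosolic fold changes. Ndor1, a diflavin reductase, was at 12.9, 15.9, 13.3, 12.5 and 14.8 CPM in KO and at 12.5, 12.4 and 11.5 CPM in WT. In 4 of 5 KO livers it lay above every WT liver, and its log2 fold change was 0.19 ± 0.105 (SE, edgeR adjusted p = 0.552). Ciapin1 (anamorsin), which receives the electrons from Ndor1, was at 17.1, 23.6, 15, 17 and 13.0 CPM in KO and at 20.4, 21 and 19.5 CPM in WT. KO replicate 2 lay above every WT liver and the other KO livers below, and the log2 fold change was -0.24 ± 0.165 (SE, edgeR adjusted p = 0.639). The annotation holds a further gene named Ndor1 that covers 55.0% of the exons of the tested Ndor1 on the same strand, so its count is uncertain.

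The cytosolic scaffold was level on average and variable in KO. Nubp1 was at 21.5, 26.1, 27.5, 21.2 and 18.3 CPM in KO and at 24.6, 24.5 and 23.9 CPM in WT, so that its KO livers lay on both sides of the WT livers. Its exons overlap those of Tvp23a on the other strand, a gene averaging 0.142 CPM in KO and 0.232 CPM in WT. Its partner ATPase Nubp2 was at 18.1, 18.8, 24.2, 26.3 and 19.3 CPM in KO and at 19.9, 22.5 and 19.4 CPM in WT. The log2 fold changes were -0.08 ± 0.128 for Nubp1 and 0.05 ± 0.137 for Nubp2 (SE, edgeR adjusted p = 0.857 and 0.931). Narfl (Ciao3), which carries clusters from the scaffold to the targeting complex, averaged 24.1 ± 2.47 CPM in KO and 25.8 ± 2.40 CPM in WT (SD, n = 5 and 3), or -0.10 as a log2 fold change.

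The targeting complex, which inserts clusters into client proteins, showed 4 of 4 members with a fold change below 0 and none that passed. Over all genes tested 50.8% lay below 0. With the length trend of each library removed, Fam96a and Fam96b lay above 0, at 0.030 and 0.015. Ciao1 and Mms19 then stayed below 0, at -0.104 and -0.219. Ciao1, its docking subunit, was at 42.0, 41.1, 49.2, 46.4 and 41.7 CPM in KO and at 50.9, 47.4 and 46.0 CPM in WT, with a log2 fold change of -0.13 ± 0.0844 (edgeR SE and adjusted p = 0.632). KO replicates 3 and 4 lay within the WT range and the other KO livers below it. Mms19, the adaptor for DNA polymerases and helicases, was at 26.0, 23.9, 19, 23.0 and 26.5 CPM in KO and at 24.8, 26.0 and 25.9 CPM in WT. It lies on chromosome 19 with 1.68 Mb between it and the deleted Slc25a28, and its interval was 0.785 to 1.10 times the WT level. Fam96a (Ciao2a), which serves iron regulatory protein 1 in human cells, averaged 40.3 ± 6.16 CPM in KO and 41.3 ± 3.75 CPM in WT, and Fam96b (Ciao2b), the general targeting subunit, 9.96 ± 0.879 CPM in KO and 10.4 ± 0.240 CPM in WT. Their log2 fold changes were -0.04 for Fam96a and -0.06 for Fam96b.

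The cytosolic glutaredoxin pair overlapped between the groups, with log2 fold changes of -0.05 for Glrx3 and 0.01 for Bola2. Glrx3, a multidomain glutaredoxin that binds a bridging cluster with Bola2, averaged 21.2 ± 1.66 CPM in KO and 21.9 ± 1.51 CPM in WT (SD, n = 5 and 3). Bola2 averaged 12.3 ± 1.43 CPM in KO and 12.2 ± 0.781 CPM in WT, with intervals of 0.839 to 1.11 times the WT level for Glrx3 and 0.846 to 1.2 times for Bola2.

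The KO livers differed among themselves in how high the machinery lay as a whole. The median coefficient of variation of a member was 11.6% over the KO samples in both compartments, against 7.37% over the WT samples for mitochondrial and 5.25% for cytosolic members, where the medians over all genes were 14.1% in KO and 11.5% in WT. KO replicate 3 held the highest KO value for 16 of 28 members, where it did so for 25.4% of all genes. The mean deviation of the mitochondrial members from the average of the 8 libraries, in log2 CPM, was -0.057, -0.033, 0.093, -0.040 and -0.100 in KO replicates 1 to 5 and 0.069, 0.014 and 0.055 in WT. For the cytosolic members it was -0.097, 0.003, 0.065, 0.022 and -0.101 in KO and 0.076, 0.038 and -0.005 in WT. In both compartments KO replicate 3 was the highest KO liver and KO replicate 5 the lowest, and the groups overlapped.

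**Figure D3:**
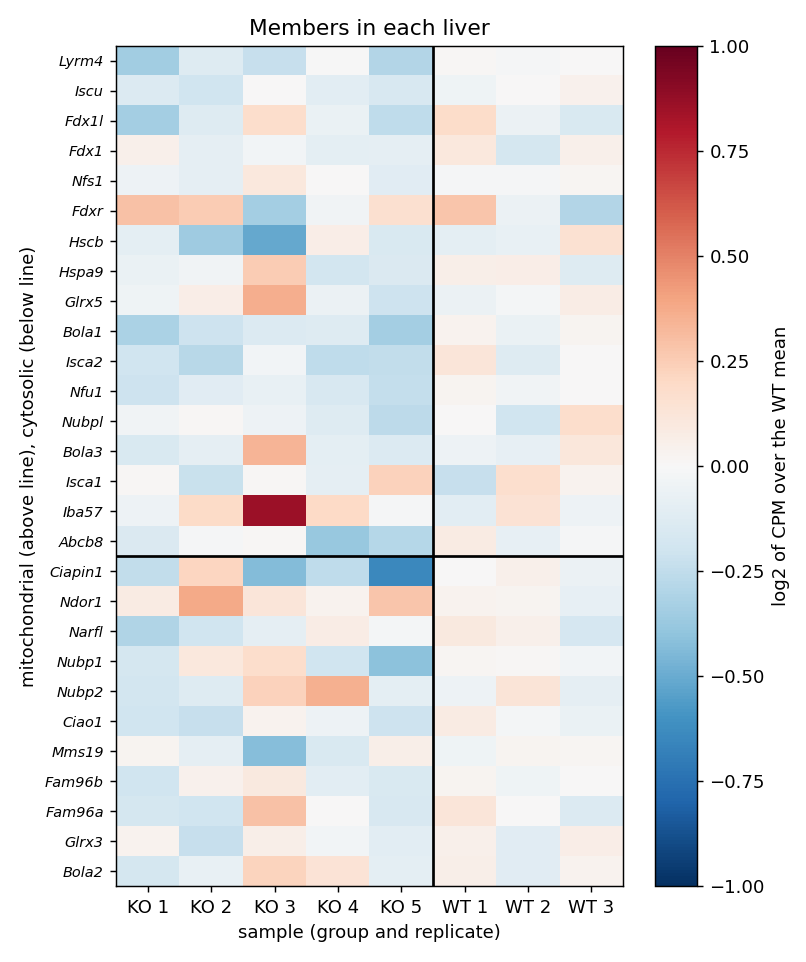
Log2 of the CPM of each member over its WT mean in each of the 5 KO livers (left of the line) and 3 WT livers (right), mitochondrial members above the horizontal line and cytosolic members below, with red for higher and blue for lower values. Iba57 in KO replicate 3, at 20.8 CPM against a WT mean of 11.5 CPM, and Ciapin1 in KO replicate 5, at 13.0 CPM against 20.3 CPM, are the most deeply coloured cells.

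**Figure D4:**
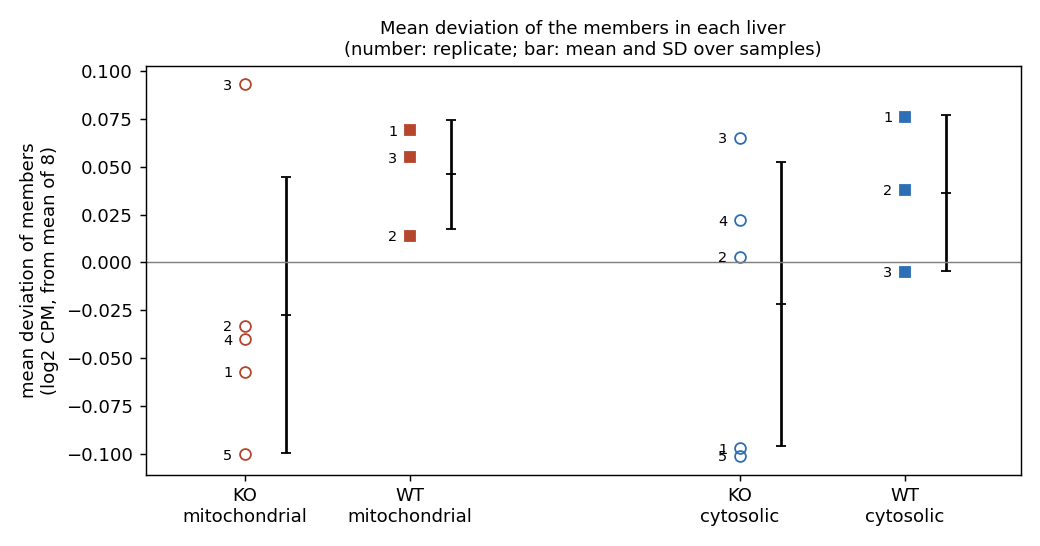
Mean deviation of the mitochondrial and cytosolic members (log2 CPM, from the mean of the 8 libraries) in each KO liver (open circles) and WT liver (filled squares), with the replicate number beside each point and the mean and SD over samples as bars. KO replicate 3 lies at 0.093 for mitochondrial and 0.065 for cytosolic members, within or above the WT points, and KO replicate 5 at -0.100 and -0.101.

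The libraries also differed in a trend with gene length, mostly opposite in sign to the members' mean deviations. Across all genes, Spearman's rho between gene length and a gene's deviation from the 8-library mean was 0.169, 0.217, -0.104, -0.120 and 0.213 in KO replicates 1 to 5 and -0.261, -0.0764 and -0.0414 in WT, as a description of libraries scaled together. The members' gene models had a median length of 2491 bases, against 3434 bases over all genes tested. KO replicates 1, 2 and 5, with the positive values, had mean deviations over all 28 members of -0.073, -0.019 and -0.100. In KO replicates 3 and 4 they were 0.082 and -0.016, and in WT replicates 1 to 3 0.072, 0.023 and 0.031. Only in KO replicate 4 did rho and the mean deviation share a sign. The part of the length trend in the results was not tested beyond its removal. With the trend removed, no member passed (smallest limma adjusted p = 0.446), and 26 of 28 intervals lay within 1.5-fold.

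None of the tested partner genes was called different either, a count close to the share of all genes for so short a list. Of 12 tested partner genes (factors that work around the matrix pathway), 0 passed in either direction by edgeR, where 0.109% of all genes did. DESeq2 called 0, against 1.66% of all genes, and 0 had an unadjusted edgeR p under 0.05, against 10.4%. A fold change below 0 was found for 7 of them, against 50.8% of all genes. Those with the smallest p were Grpel1, the nucleotide exchange factor of Hspa9, at 122 ± 8.69 CPM in KO and 133 ± 6.32 CPM in WT, and Ndufab1, the acyl carrier protein bound to the desulfurase complex, at 15.1 ± 1.21 CPM in KO and 13.6 ± 1.40 CPM in WT (SD, n = 5 and 3, edgeR adjusted p = 0.646 and 0.648).

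Among enzymes that carry the clusters, 0 of 15 mitochondrial and 0 of 24 cytosolic, nuclear and reticular genes passed by edgeR or by DESeq2. Of all genes, 0.109% passed by edgeR and 1.66% by DESeq2. Fold changes lay below 0 for 11 and 17 of these clients, against 50.8% of all genes. At an unadjusted edgeR p under 0.05, 2 mitochondrial and 2 other clients passed, all lower in KO, where 4.68% of all genes passed as lower. They were Mocs1, which opens molybdenum cofactor synthesis, at 82.9 ± 4.94 CPM in KO and 95.8 ± 4.33 CPM in WT, and Sdhb, the cluster subunit of succinate dehydrogenase, at 190 ± 18.0 CPM in KO and 224 ± 14.2 CPM in WT. The others were Aox1, an aldehyde oxidase, at 95.8 ± 4.11 CPM in KO and 119 ± 25.1 CPM in WT, and Tyw1, a tRNA-modifying enzyme, at 15.6 ± 0.804 CPM in KO and 17.7 ± 0.639 CPM in WT (SD, n = 5 and 3). Their edgeR adjusted p lay between 0.423 and 0.482.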

How the data were processed

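Novoalign 2.8, DESeq2 and build mm10 are named, per the submitters' processing notes, and the counting program and strand setting are not stated; the kit was stranded, per the labels' protocols. The authors deposited raw read counts per gene, regularised log2 values (not used), FPKM values, a log2 ratio and a score that rises as its adjusted p falls (rank correlation 0.994 with DESeq2 refitted here). A line emptied in the table was left out.

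Counts were filtered with filterByExpr (min.count 10, min.total.count 15), scaled by TMM and tested with the quasi-likelihood test of edgeR 4.0.16 in R 4.3.3, group as the only term, Benjamini-Hochberg threshold 0.05, two-sided. SE is the fold change over the root of F; 95% intervals use the t quantile of the total degrees of freedom. CPM use TMM-scaled totals, log2 CPM a prior count of 2; a count was worth 0.0227 to 0.0404 CPM. DESeq2 1.42.0, limma 3.58.1, other scalings, filters, left-out libraries, a replicate block, thinning and removal of the length trend were alternatives. Exact permutation (two-sided) had 56 splits. Overlaps are from GENCODE M21 (mm10). Replicates differed by 28.1 to 77.3 in chi-square per gene, above sampling noise. The procedures were tested on simulated data.

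The members and lists were chosen with earlier results of these data known. Every member is named. Values of each sample are given for Iscu, Nfs1, Fdxr, Glrx5, Isca1, Nubp1, Ciao1, Mms19, members without overlap, and the 2 members with the smallest p per direction and compartment; from each further list, genes that passed or the 2 with the smallest p. Some partner genes are not reported here by name.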

Additional observations from a re-analysis of the deposited data

Results flagged for a closer look

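In the 5 KO livers, 2 of 28 members had a sample far from the others, both in KO replicate 3. Iba57 was at 20.8 CPM there, with the next KO liver at 13.2 CPM, and Bola3 at 30.1 CPM, with the next at 22.4 CPM. The gap was a share of 0.791 and 0.885 of the whole KO range, above Dixon's critical value of 0.71 for 5 samples. Chance flags about 1 in 20 groups. In the same library Hspa9, Glrx5 and Fam96a also had their highest KO values, at 626, 58.3 and 50.6 CPM.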

How the results depend on the processing

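No member and no partner or client gene passed the adjusted threshold under any alternative run. The smallest adjusted p of a member ranged from 0.280 (without KO replicate 3) to 0.866 (without WT replicate 1). With the length trend of each library removed, the cytosolic median was 0.011 and 5 of 11 cytosolic members lay below 0. Per kilobase of longest coding transcript, an alternative chosen after seeing the data, the ratio of median WT levels, mitochondrial over cytosolic, was 1.45, against 1.33 in FPKM. With single libraries left out, medians ranged from -0.130 to -0.063 (mitochondrial) and from -0.091 to -0.031 (cytosolic), and 24 to 27 intervals lay within 1.5-fold.

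No member that changed sign had passed in either setting, and the cause was not tested. Without KO replicates 1 and 2 the log2 fold changes with a changed sign were Nfs1 0.010, Fdxr -0.051, Isca1 0.070, Bola3 0.062, Narfl 0.003 and Fam96a 0.067. With the length trend removed they were Fdx1 0.028, Bola3 0.001, Fam96a 0.030, Fam96b 0.015 and Glrx3 0.011. Against WT, the KO samples numbered 85 gave Hspa9 0.057, Bola3 0.050, Nubp1 0.043 and Nubp2 -0.017, and those numbered 82 gave Glrx5 -0.128, Isca1 0.086 and Narfl 0.034. Isca1 was 0.009 by DESeq2, 0.007 by limma-voom, 0.008 with RLE factors, 0.006 with no filter on low counts and 0.046 in thinned libraries. Bola2 was -0.004 in thinned libraries and -0.002 with upper-quartile factors. With single libraries left out, the ranges of members that changed sign were -0.041 to 0.066 for Bola2, -0.111 to 0.062 for Bola3, -0.126 to 0.041 for Fam96a, -0.130 to 0.018 for Fdx1, -0.027 to 0.259 for Fdxr, -0.049 to 0.095 for Glrx5, -0.101 to 0.011 for Hspa9, -0.094 to 0.090 for Isca1, -0.037 to 0.116 for Nubp2 and -0.182 to 0.016 for Nubpl.

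Replicate numbers 1 to 3 are shared by KO and WT, but same-numbered samples did not deviate together (correlations 0.0728, 0.0606 and -0.0831). With the replicate block, 0 members passed, the medians were -0.050 and -0.026, and Hspa9 was 0.052, Bola3 0.037, Nubp1 0.036, Nubp2 -0.026 and Bola2 -0.003. Depth limits Hscb most, with 59 counts in its lowest library.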
